A study of Mus musculus with 8 samples.

Results

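The tripartite motif (TRIM) genes are a family of ubiquitin ligases, and 41 of the 12964 genes in the deposited expression table belong to it under the rule used here, which takes every gene whose symbol is Trim followed by a number and at most 1 letter. The GENCODE annotation holds 68 protein-coding mouse genes with such symbols. The other 27, among them Trim30b, Trim34b and Trim38, are not analysed here. RNA was sequenced from PyMT cells, mouse mammary tumour cells driven by the polyoma virus middle T oncogene, with the genotype given as WT. Sorting by fluorescence had split the cells into a CD90pos population, positive for CD90, and a CD90neg population without it, CD90 being the surface protein encoded by Thy1. The groups were CD90pos cells with interferon gamma (IFNg, 10 IU per ml for 24 h), CD90pos control cells without it, CD90neg cells with the same IFNg treatment and CD90neg control cells. All groups were grown in the same culture medium with serum, insulin and epidermal growth factor. Each of the 4 groups held 2 libraries, with the letters A and B, and the labels do not say whether these came from separate cultures or animals, so that the p-values reflect the spread between the libraries at hand, which may be technical.

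TRIM proteins carry, from the amino end, a RING domain that recruits a ubiquitin-conjugating enzyme (E2), 1 or 2 B-boxes and a coiled coil through which the proteins pair, followed by a tail that differs between subfamilies and picks the target. In the most numerous subfamily the tail is a PRYSPRY domain, and many of its members act in defence against viruses or in the signalling of innate immune sensors. Other subfamilies have tails that bind chromatin, microtubules or RNA, and a few members lack the RING. Interferons act on target genes through STAT and IRF transcription factors, which bind the gamma-activated site and the interferon-stimulated response element (ISRE).

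A search of RefSeq promoter windows (GRCm38.p6, 250 bases before to 50 after the annotated start) for the ISRE core (GAAA, any 2 bases, GAAA) on both strands found it in 8 of the 13 members with a window that IFNg raised in the comparisons below. It was found in 1 of the 18 other members with a window, Trim2, where the matched bases on the gene's strand were TTTCCTTTTC. Windows were at hand for 31 of the 41 members, and a member counted when any of its windows held the core. By window, 10 of the 44 windows of members held it (22.7%). It was in 3.04% of the windows of genes in the table and in 3.44% of all 32851 windows. The stretches that carry it are shown because they set the raised members side by side. They are given 5′ to 3′ on the gene's strand, with the matched bases in capitals and at most 30 bases past the annotated start.
Trim12a, chr7:104315466-104315510, minus strand: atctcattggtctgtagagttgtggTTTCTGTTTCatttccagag
Trim5, chr7:104288136-104288180, minus strand: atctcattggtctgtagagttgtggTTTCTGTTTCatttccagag
Trim12c, chr7:104353359-104353403, minus strand: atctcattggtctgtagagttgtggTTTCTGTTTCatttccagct
Trim30a, chr7:104465210-104465254, minus strand: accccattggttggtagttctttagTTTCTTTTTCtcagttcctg
Trim30d, chr7:104507871-104507915, minus strand: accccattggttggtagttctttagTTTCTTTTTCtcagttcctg
Trim34a, chr7:104244442-104244486, plus strand: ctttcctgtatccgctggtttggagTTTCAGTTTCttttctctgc
Trim21, chr7:102565453-102565494, minus strand: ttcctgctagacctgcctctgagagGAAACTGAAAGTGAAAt
Trim26, chr17:36836961-36837011, plus strand: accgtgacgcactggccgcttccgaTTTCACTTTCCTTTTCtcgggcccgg
The stretches of Trim12a and Trim5 had 0 differing bases over 45, and that of Trim12c differed from them at 2. Those of Trim30a and Trim30d also had 0 differing bases over 45, and they differed from that of Trim12a at 19. Trim21 and Trim26 held 2 overlapping matches each. The gamma-activated site TTCNNNGAA was found in 1 of the 13 raised members (Trim15) and in 2 of the 18 others (Trim45 and Trim46). By window, it was in 9.09% of those of members, 6.78% of those of genes in the table and 8.30% of all. A match describes the letters of these windows and does not show that a factor binds there.

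The 8 libraries held between 31243646 and 40899909 reads, recovered as whole reads from the deposited normalized values, and 3 reads corresponded to between 2.55 and 3.37 normalized reads. Thy1, the gene of the sort marker, was at 2195 and 3936 normalized reads in CD90pos IFNg libraries A and B and at 283 and 1495 in CD90pos control libraries, against 55.7 and 65.5 in CD90neg IFNg and 20.6 and 16.6 in CD90neg control libraries. All 12 epithelial markers were present, with sums between 291248 and 1039630 normalized reads per library, and 0 of 6 endothelial markers were in the table. Of 18 leukocyte markers 7 were in the table, and their sum was 1729 and 918 in CD90pos IFNg libraries A and B, against 3427 and 1523 in CD90pos control libraries, and 2141 and 1050 in CD90neg IFNg libraries, against 2468 and 1261 in CD90neg control libraries. Ptprc, the pan-leukocyte gene, was not among them. Cd14 and Lyz2 made up most of each sum, and the markers did not all move alike. In CD90neg cells Cd14, Lyz2 and Csf1r were lower with IFNg in both letters. Tyrobp, Coro1a and Cd68 were higher there, and Laptm5 differed between the letters. Of 9 fibroblast markers 7 were in the table, with sums of 471 and 5805 in CD90pos IFNg libraries, against 1271 and 14091 in CD90pos control libraries, and of 651 and 4013 in CD90neg IFNg libraries, against 825 and 2680 in CD90neg control libraries. The part of these markers in the results was not tested, and fewer cells of a type and less RNA per cell cannot be told apart in bulk libraries.

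No member was at 0 in any library. Counting exon length, Trim28, the corepressor that works with KRAB zinc-finger proteins, had the highest level, with a mean of 3134 normalized reads per kb of exon over the 8 libraries, followed by Trim47 at 984, Trim16 at 908, Trim44 at 881 and Trim25 at 751. Trim36 was lowest at 9.07 per kb, next to Trim14 at 18.9. By mean normalized reads, without regard to length, 20 members were at 1000 or more and 6 were below 100. The family took 0.216% and 0.198% of the reads in CD90pos IFNg libraries A and B, against 0.170% and 0.151% in CD90pos control libraries, and 0.215% and 0.203% in CD90neg IFNg libraries, against 0.194% and 0.183% in CD90neg control libraries. In both populations and both letters the share was higher with IFNg.

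**Figure D1:**
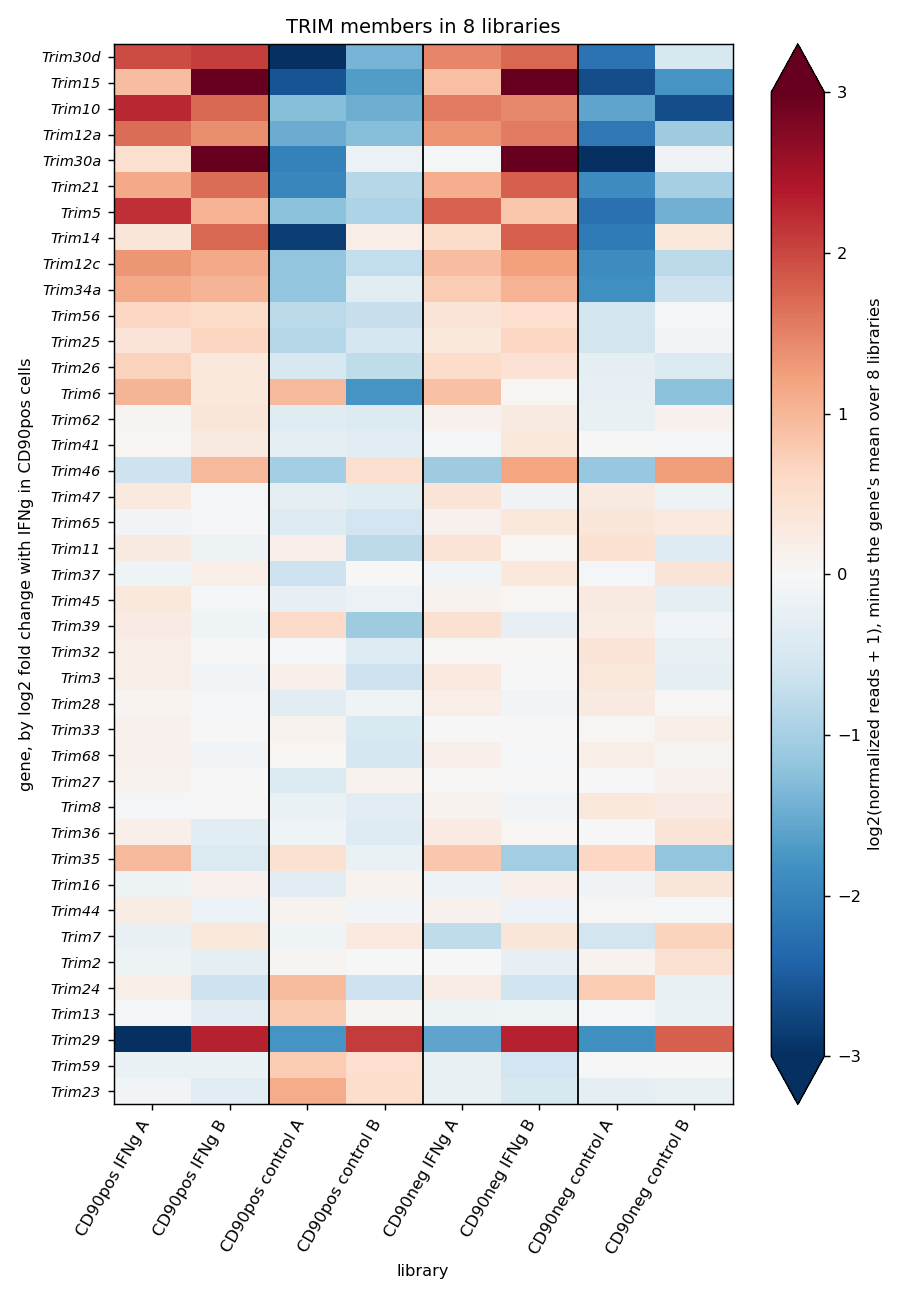
Each cell of the map is log2(normalized reads + 1) of a TRIM member (row) in a library (column), minus the gene's mean over the 8 libraries, with red for above and blue for below the mean. Most of the upper rows are red in the IFNg columns and blue in the control columns of both populations, while most of the 41 rows show no such pattern. Among the upper rows, Trim14 is above its mean in control library B of both populations. Trim30a is just below its mean in CD90neg IFNg library A. Trim29 changes colour with the letter of the library.

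The first comparison asked which members respond to IFNg in CD90pos cells. IFNg raised 7 of the 41 members, and lowered 0, at an adjusted p under 0.05 (limma on log2(normalized reads + 1), Benjamini-Hochberg adjustment over all genes tested). The raised members were Trim10, Trim12a, Trim21, Trim12c, Trim56, Trim25 and Trim26, with log2 fold changes from 1.13 to 3.37. The 7 make up 17.1% of the members, while 4.21% of all 12962 genes tested were called in either direction and 2.11% as higher, with the same share as lower. A second fit took the letter as a replicate block, which removes the difference that the libraries of a letter share. It called 14 members as higher and 2 as lower, where 14.0% and 13.6% of all genes were called in these directions and 27.6% in either. The 7 added as higher were Trim30d, Trim15, Trim30a, Trim5, Trim14, Trim34a and Trim47, and the 2 called as lower were Trim23 and Trim59. For Trim10, Trim15, Trim5 and Trim30d every control library was below 43.4 normalized reads, the lowest maximum of any gene in the table. Members as low that did not respond to IFNg may be absent, which may raise the share of members called. The same holds for the shares of all genes.

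In CD90neg cells IFNg raised 1 of the 41 members without the block, Trim12a, and lowered 0, while 0.633% of all genes were called as higher, 0.00771% as lower and 0.640% in either direction. With the block 12 members were called as higher and 0 as lower, while 3.48% of all genes were called as higher, 0.663% as lower and 4.14% in either direction. On the recovered reads, edgeR without the block called 5 members in CD90pos cells, beside 3.23% of all genes, and 0 in CD90neg cells, beside 0.478%. With the block edgeR called 17, beside 27.7%, and 12, beside 4.25%, and DESeq2 without a block called 13, beside 15.8%, and 10, beside 2.83%. All 12 were among the 14 called as higher in CD90pos cells with the block, which is 100% of the CD90neg set and 85.7% of the CD90pos set, and the 2 without a call in CD90neg cells were Trim14 and Trim47. The 2 comparisons share no library. Both were taken from 1 fit to all 8 libraries, with the same estimate of each gene's spread, so the 2 sets of calls are not independent. Over all 41 members the median log2 fold change was 0.35 in CD90pos and 0.09 in CD90neg cells, beside 0.01 and -0.02 over all genes tested.

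The calls without the block depended on most libraries. In CD90pos cells they came to 0 when either CD90pos IFNg library, either CD90pos control library or either CD90neg IFNg library was left out, and to 3 when either CD90neg control library was left out, while the share of all genes called ran from 0.0154% to 0.879%. The call in CD90neg cells was lost without any 1 of the libraries except CD90neg control library B. With the block, 9 members were called as higher in CD90pos cells in every fit that left out 1 library (Trim10, Trim12a, Trim12c, Trim15, Trim21, Trim25, Trim26, Trim30d and Trim56), and the lowest count, 9, came without CD90pos IFNg library A, where 3.55% of all genes were called. The share of all genes reached 31.1% without CD90pos control library A. Trim30a, Trim5, Trim34a, Trim14 and Trim47, called as higher with all libraries, each lost the call without CD90pos IFNg library A. In CD90neg cells 4 were called in every such fit (Trim10, Trim12a, Trim12c and Trim21), with 5 called without CD90neg IFNg library A, 4 without CD90neg IFNg library B and 5 without CD90neg control library A, beside 1.71%, 1.94% and 1.75% of all genes.

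**Figure D2:**
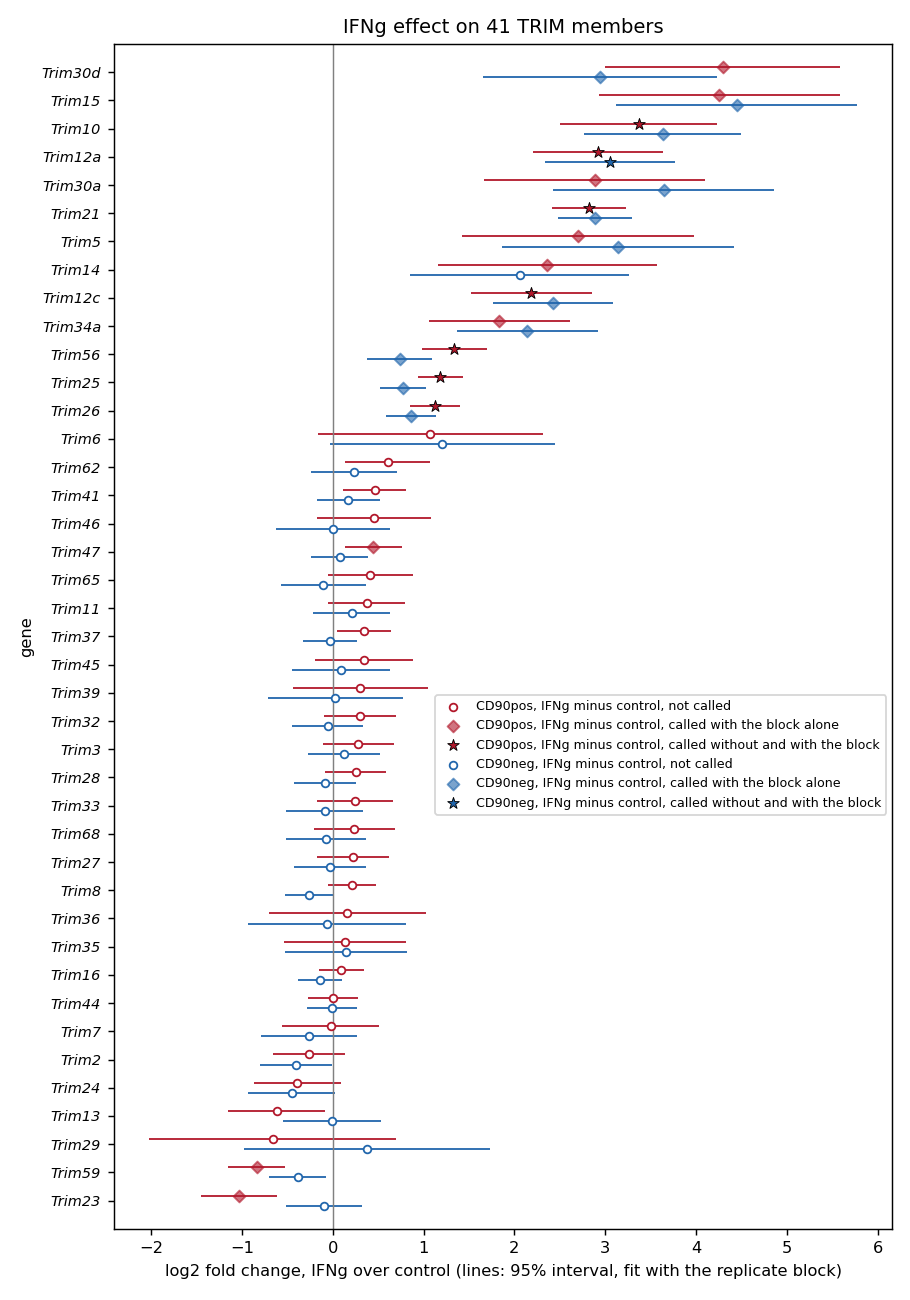
Log2 fold changes of IFNg over control on the horizontal axis for the 41 members, in CD90pos (red) and CD90neg (blue) cells, with 95% intervals from the fit with the replicate block, filled symbols for members called and open ones for the rest. In the upper 13 rows, from Trim30d to Trim26, the estimates of both populations lie above 0, and Trim59 and Trim23 are at the bottom with -0.84 and -1.03 in CD90pos cells.

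The longest run of raised neighbours lay on chromosome 7. Between 104218793 and 104507849 (GRCm38), over 289 kb, the table held Trim6, Trim34a, Trim5, Trim12a, Trim12c, Trim30a and Trim30d and no other gene. With the block 6 of these 7 were raised in both populations, beside 14.0% of all genes in CD90pos and 3.48% in CD90neg cells. Without it Trim12a and Trim12c were called in CD90pos cells, beside 2.11% of all genes, and Trim12a in CD90neg cells, beside 0.633%. Every control library of Trim5 and Trim30d was below 43.4 normalized reads, the lowest maximum of any gene in the table. Unresponsive neighbours as low may therefore be absent. Trim5, Trim12a and Trim12c are the mouse relatives of primate TRIM5, which binds the capsid of incoming retroviruses.

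Trim12a (chromosome 7, 104299894 to 104315466, minus strand) was at 1468 and 1221 normalized reads in CD90pos IFNg libraries A and B, against 164 and 190 in CD90pos control libraries. In CD90neg cells it was at 1172 and 1349 with IFNg, against 104 and 220 in control libraries. The groups were far apart in both populations, and Trim12a was the only member called in both without the block, at 2.92 (SE 0.36, adjusted p = 0.0286) in CD90pos and 3.05 (SE 0.36, adjusted p = 0.0316) in CD90neg cells on the log2 scale.

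Trim12c (104338754 to 104353362, minus strand) was at 1661 and 1455 in CD90pos IFNg libraries A and B, against 290 and 400 in CD90pos control libraries. It was at 1268 and 1549 in CD90neg IFNg libraries, against 179 and 378 in CD90neg control libraries. The groups did not overlap in either population, and its log2 fold change was 2.19 in CD90pos cells (SE 0.38, adjusted p = 0.0390) and 2.43 in CD90neg cells (SE 0.38, adjusted p = 0.0692, with the block 0.00473).

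Trim5 (104263386 to 104288094, minus strand) was scarcer, at 244 and 109 in CD90pos IFNg libraries A and B, against 21.9 and 26.9 in CD90pos control libraries. It was at 180 and 94.5 in CD90neg IFNg libraries, against 10.3 and 18.7 in CD90neg control libraries. Library A was the higher one with IFNg and the lower one without it in both populations, and the change was called only with the block, at 2.70 (adjusted p = 0.0134) in CD90pos and 3.14 (adjusted p = 0.0237) in CD90neg cells on the log2 scale.

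Trim34a (104244457 to 104262234, plus strand) was at 687 and 628 in CD90pos IFNg libraries A and B, against 136 and 249 in CD90pos control libraries. It was at 531 and 648 in CD90neg IFNg libraries, against 86.5 and 202 in CD90neg control libraries. IFNg libraries exceeded control libraries in both populations, and the rise was called with the block alone, with log2 fold changes of 1.83 (adjusted p = 0.00957) in CD90pos and 2.14 (adjusted p = 0.0153) in CD90neg cells.

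Trim30a (104409025 to 104465193, minus strand), known in mouse to damp Toll-like receptor signalling by acting on the kinase adaptors Tab2 and Tab3, was at 133 and 837 in CD90pos IFNg libraries A and B, against 23.0 and 85.3 in CD90pos control libraries. It was at 92.9 and 773 in CD90neg IFNg libraries, against 4.12 and 89.5 in CD90neg control libraries. Library A was several-fold below library B in all 4 groups, by a mean of -2.92 on the log2 scale, which is about the size of the change, and by -4.14 in CD90neg control libraries, which is more than the change there. Within each letter IFNg libraries were higher, and with the block the log2 fold change was 2.88 (adjusted p = 0.00948) in CD90pos and 3.65 (adjusted p = 0.0109) in CD90neg cells. Without it the adjusted p was 0.404 in CD90pos cells and the change was called in neither population.

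Trim30d (104470014 to 104507849, minus strand) was at 147 and 159 in CD90pos IFNg libraries A and B, against 3.28 and 13.5 in CD90pos control libraries, which are 3 and 12 reads. It was at 103 and 124 in CD90neg IFNg libraries, against 7.20 and 26.01 in CD90neg control libraries, or 7 and 25 reads. The separation was wide in both populations, but the size of the fold change depends on the few control reads and on the pseudocount of 1. With the block it was 4.29 (SE 0.54, adjusted p = 0.00377) in CD90pos and 2.94 (SE 0.54, adjusted p = 0.0323) in CD90neg cells on the log2 scale, and the adjusted p without the block was 0.0519 in CD90pos cells.

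Trim6 (104218793 to 104235152, plus strand), at the edge of the run, was the member without a call. It was at 185 and 114 in CD90pos IFNg libraries A and B, against 180 and 25.8 in CD90pos control libraries, and at 167 and 95.3 in CD90neg IFNg libraries, against 76.2 and 38.5 in CD90neg control libraries. In CD90pos cells the difference lay in letter B, with log2 changes of 0.04 in letter A and 2.11 in letter B. Its adjusted p with the block was 0.167 in CD90pos and 0.361 in CD90neg cells.

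These neighbours share sequence, which limits how reads can be assigned among them. Of all stretches of 50 bases in its annotated exons, Trim34a shared 39.8% with another gene, which was Trim34b. The share was 36.3% for Trim5 and 33.0% for Trim12c, mostly with each other, and 10.4% for Trim12a, 7.49% for Trim30d and 5.98% for Trim30a. An annotated antisense gene covers 23.5% of the exon bases of Trim34a, and the sources used here do not give whether the counting used the strand. The split of reads between Trim5 and Trim12c, and between Trim34a and Trim34b, is uncertain for these reasons.

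Trim21 (chromosome 7, 102557921 to 102565486, minus strand), the cytosolic receptor for antibody-coated viruses, was at 1734 and 2501 normalized reads in CD90pos IFNg libraries A and B, against 199 and 431 in CD90pos control libraries. It was at 1659 and 2732 in CD90neg IFNg libraries, against 211 and 392 in CD90neg control libraries. Within each condition the ranges of the populations overlapped, and the log2 fold change was 2.82 in CD90pos cells (SE 0.50, adjusted p = 0.0412) and 2.88 in CD90neg cells (SE 0.50, adjusted p = 0.0979, with the block 0.000799). Its neighbour Trim68 (102677582 to 102687327), with no other gene of the table in the span of both, had log2 fold changes of 0.24 in CD90pos and -0.07 in CD90neg cells and no call.

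A further cluster of members lay on chromosome 17 between 36258873 and 36877833, a span of 619 kb in which the table held Trim39, Trim26, Trim15 and Trim10 and no other gene. With the block Trim26, Trim15 and Trim10 were raised in both populations, beside 14.0% of all genes in CD90pos and 3.48% in CD90neg cells. Trim39 was at 0.30 in CD90pos and 0.03 in CD90neg cells on the log2 scale, without a call, and the CD90neg value turned negative, at -0.03 and -0.02, under quantile normalization and median centring.

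Trim10 (36869574 to 36877833, plus strand), best known from red blood cell development, was at 251 and 174 normalized reads in CD90pos IFNg libraries A and B, against 20.8 and 17.96 in CD90pos control libraries. It was at 155 and 142 in CD90neg IFNg libraries, against 16.5 and 7.28 in CD90neg control libraries. Of the members called without the block, this low gene had the largest log2 fold change, 3.37 (SE 0.53, adjusted p = 0.0344) in CD90pos cells. In CD90neg cells its change reached 3.63 (SE 0.53, adjusted p = 0.0594, with the block 0.00271). All its control libraries were below 43.4 normalized reads, the lowest maximum of any gene in the table. An unresponsive gene at its control level may therefore be absent from the table.

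Trim15 (36860691 to 36867210, minus strand), known from focal adhesions, was at 73.1 and 388 in CD90pos IFNg libraries A and B, against 5.47 and 11.2 in CD90pos control libraries. It was at 71.6 and 458 in CD90neg IFNg libraries, against 5.15 and 10.4 in CD90neg control libraries. Control libraries held 5 or 10 reads each, and library B was the higher one throughout. With the block the log2 fold change was 4.25 (SE 0.56, adjusted p = 0.00416) in CD90pos and 4.45 (SE 0.56, adjusted p = 0.00683) in CD90neg cells, the highest of any member in CD90neg cells.

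Trim26 (36837134 to 36859398, plus strand), which acts on the antiviral transcription factor Irf3, was at 4451 and 3387 in CD90pos IFNg libraries A and B, against 1958 and 1610 in CD90pos control libraries. It was at 4029 and 3679 in CD90neg IFNg libraries, against 2226 and 2018 in CD90neg control libraries. The change was small in size and even across letters, 1.18 and 1.07 in letters A and B of CD90pos cells and 0.86 and 0.87 in those of CD90neg cells on the log2 scale. It was called without the block in CD90pos cells (adjusted p = 0.0365) and with it in CD90neg cells (adjusted p = 0.00912, without it 0.201).

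**Figure D3:**
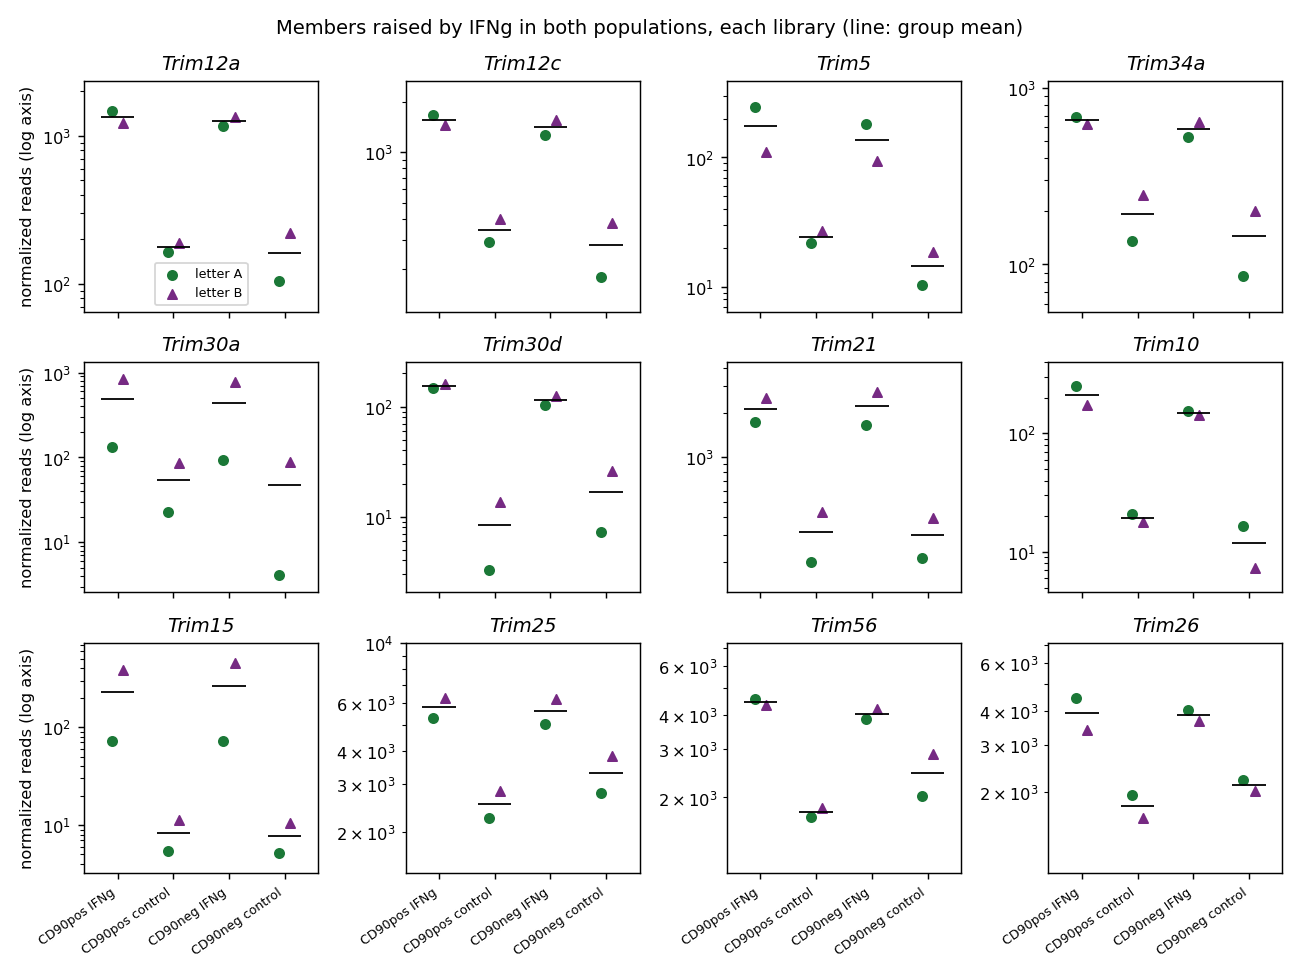
Normalized reads (log axis) of the 12 members called as higher in both populations with the replicate block, with a circle for letter A, a triangle for letter B and a line at the group mean. In each panel all IFNg libraries of a population lie above its control libraries, by the narrowest margin for Trim30a, where CD90neg IFNg library A, at 92.9, lies next to CD90neg control library B, at 89.5.

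Trim25 and Trim56 were abundant before treatment and rose by about the size seen for Trim26. Trim25 (chromosome 11, 88999376 to 89020293, plus strand), which ubiquitinates the RNA sensor RIG-I, was at 5285 and 6284 normalized reads in CD90pos IFNg libraries A and B, against 2250 and 2847 in CD90pos control libraries. It was at 5039 and 6228 in CD90neg IFNg libraries, against 2779 and 3836 in CD90neg control libraries. The log2 fold change was 1.19 in CD90pos cells (SE 0.23, adjusted p = 0.0476) and 0.78 in CD90neg cells (SE 0.23, adjusted p = 0.464, with the block 0.00962).

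Trim56 (chromosome 5, 137105644 to 137116209, minus strand), which has a RING but no PRYSPRY tail and acts in the sensing of cytosolic DNA, was at 4575 and 4350 in CD90pos IFNg libraries A and B, against 1697 and 1836 in CD90pos control libraries. It was at 3857 and 4203 in CD90neg IFNg libraries, against 2026 and 2869 in CD90neg control libraries. The libraries of CD90pos cells were close together within each condition, and the log2 fold change was 1.34 (SE 0.19, adjusted p = 0.0318). In CD90neg cells it was 0.74 (SE 0.19, adjusted p = 0.324, with the block 0.0471).

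Trim14 and Trim47 were called in CD90pos cells alone, and with the block alone. Trim14 (chromosome 4, 46493781 to 46536141, minus strand), a member without a RING that binds the mitochondrial adaptor Mavs, was at 68.1 and 178 in CD90pos IFNg libraries A and B, against 6.57 and 60.6 in CD90pos control libraries. It was at 77.8 and 185 in CD90neg IFNg libraries, against 11.3 and 67.6 in CD90neg control libraries. In each population IFNg library A exceeded control library B by a narrow margin. The log2 fold change was 2.36 (SE 0.51, adjusted p = 0.0170 with the block) in CD90pos and 2.06 (SE 0.51, adjusted p = 0.0931) in CD90neg cells. The call in CD90pos cells was lost without CD90pos IFNg library A (adjusted p = 0.137), without CD90pos IFNg library B (0.0609) and without CD90pos control library A (0.0523). The gene Nans lies antisense over 31.3% of the exon bases of Trim14.

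Trim47 (chromosome 11, 116105752 to 116127210, minus strand) was at 3225 and 2549 in CD90pos IFNg libraries A and B, against 2160 and 2051 in CD90pos control libraries. It was at 3476 and 2464 in CD90neg IFNg libraries, against 3203 and 2395 in CD90neg control libraries. The change in CD90pos cells was the smallest of those called, 0.45 on the log2 scale (adjusted p = 0.0467 with the block, 0.331 without it), and in CD90neg cells it was 0.08. The call was lost when any 1 library other than CD90pos control library B was left out, with adjusted p from 0.0678 to 0.230, and with trends on exon length and GC content removed the log2 fold change was 0.14. Trim47 shares 225 exon bases with Trim65 on the same strand.

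The members called as lower were Trim23 and Trim59, both in CD90pos cells and with the block alone. Trim23 (chromosome 13, 104178797 to 104203372, plus strand), whose tail is a small GTPase domain of the ARF type, was at 771 and 652 in CD90pos IFNg libraries A and B, against 1769 and 1193 in CD90pos control libraries. It was at 701 and 590 in CD90neg IFNg libraries, against 667 and 706 in CD90neg control libraries. CD90pos control libraries were the ones that stood apart, and with IFNg both populations were near the level of CD90neg control libraries. The log2 fold change was -1.03 (SE 0.18, adjusted p = 0.00841 with the block, 0.0637 without it) in CD90pos and -0.09 in CD90neg cells. The call was lost without CD90pos IFNg library A (adjusted p = 0.0751) and without CD90pos IFNg library B (0.0672), and with the block and trends on exon length and GC content removed the change was -0.54 (adjusted p = 0.0265).

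Trim59 (chromosome 3, 69035288 to 69044755, minus strand), which is anchored in membranes, was at 2033 and 2034 in CD90pos IFNg libraries A and B, against 3967 and 3329 in CD90pos control libraries. It was at 2016 and 1575 in CD90neg IFNg libraries, against 2325 and 2331 in CD90neg control libraries. IFNg libraries were below control libraries in both populations. The log2 fold change was -0.84 (SE 0.13, adjusted p = 0.00681 with the block, 0.0519 without it) in CD90pos cells and -0.39 (adjusted p = 0.237 with the block) in CD90neg cells. Without CD90pos IFNg library A the call was lost (adjusted p = 0.0814), and with trends on exon length and GC content removed the change was -0.22 (adjusted p = 0.206). Under quantile normalization without the block Trim59 was called as lower in CD90pos cells (adjusted p = 0.0403), which made the split of calls 6 higher and 1 lower in place of 7 and 0. Median centring gave 7 higher and 1 lower.

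The remaining 25 members had no call in either population under limma, with or without the block. Their log2 fold changes ran from -0.66 (Trim29) to 1.07 (Trim6) in CD90pos cells, with a median of 0.25 and 21 of 25 within 0.5 of 0, and from -0.45 (Trim24) to 1.21 (Trim6) in CD90neg cells, with a median of -0.03 and 24 of 25 within 0.5. For 2 members, Trim44 and Trim16, the 95% interval of the blocked fit lay within 0.5 of 0 in both populations. For the others the libraries do not show that IFNg left them unaltered.

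Trim44 (chromosome 2, 102300119 to 102407828, minus strand), which has no RING, was at 5754 and 4386 normalized reads in CD90pos IFNg libraries A and B, against 5315 and 4699 in CD90pos control libraries. It was at 5409 and 4408 in CD90neg IFNg libraries, against 5047 and 4752 in CD90neg control libraries. The groups overlapped in both populations, and the log2 fold change was 0.01 in CD90pos and -0.00 in CD90neg cells, a direction that flipped between scalings. Trim16 (chromosome 11, 62820231 to 62850808, plus strand), also without a RING, was at 3680 and 4514 in CD90pos IFNg libraries, against 3312 and 4386 in CD90pos control libraries. It was at 3625 and 4571 in CD90neg IFNg libraries, against 3841 and 5237 in CD90neg control libraries. Its groups overlapped as well, with log2 fold changes of 0.10 and -0.14.

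By protein build, 40 genes had been listed in the subfamily with a RING and, in most of its members, a PRYSPRY tail. Of these, 22 were among the 41 members. In this class Trim10, Trim15, Trim5 and Trim30d had every control library below 43.4 normalized reads, the lowest maximum of any gene in the table. Listed genes as low that did not respond may be absent, which may raise the share of the class called. In CD90pos cells 6 of the 22 were raised without and 12 with the block, beside 2.11% and 14.0% of all genes, with a median log2 fold change of 1.10. In CD90neg cells 1 and 11 were raised, beside 0.633% and 3.48% of all genes, with a median of 0.82. Beside the responders the class holds members without a call, such as Trim11 at 0.37 in CD90pos and 0.21 in CD90neg cells, Trim27 at 0.22 and -0.03, and Trim35 at 0.14 and 0.15. Of the 3 measured TIF1 members, chromatin readers, 0 were called, with Trim24 at -0.39 in CD90pos and -0.45 in CD90neg cells, Trim28 at 0.25, which turned to -0.09 with trends on length and GC content removed, and -0.08, and Trim33 at 0.25 and -0.09. The 3 members with NHL tails, Trim2, Trim3 and Trim32, and the microtubule-binding COS members Trim36 and Trim46, also gave 0 calls. With the block 27.6% of all genes were called in CD90pos and 4.14% in CD90neg cells, in either direction. In classes of 2 or 3 members 0 calls therefore do not show that these classes respond less than other genes.

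By role, 23 genes had been listed as acting in antiviral or innate immune signalling, and 17 of these were among the 41 members. Trim5 and Trim30d are on this list, and listed genes as low that did not respond may be absent from the table. Of the 17 members 6 were raised without the block in CD90pos cells and 11 with it, beside 2.11% and 14.0% of all genes, with a median of 1.34 on the log2 scale. Trim23 was lowered with the block, beside 13.6% of all genes. In CD90neg cells 1 was raised without and 10 with the block, beside 0.633% and 3.48% of all genes, with a median of 1.21. The listed members without a call were Trim6, Trim8, Trim13, Trim32 and Trim65. Trim8, which interacts with the IFNg feedback inhibitor Socs1, was at 0.21 in CD90pos cells, which turned to -0.11 with trends on length and GC content removed, and at -0.26 in CD90neg cells. Trim10, Trim15 and Trim47 were raised with the block and were not on that list.

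Counting groups that did not overlap, 21 members were higher in both IFNg libraries than in both control libraries of CD90pos cells, beside 24.2% of all genes, and 4 were lower, beside 23.8%. In CD90neg cells 14 members were higher, beside 14.3% of all genes, and 4 lower, beside 14.7%. Within letters, 30 members were higher and 5 lower with IFNg in both letters of CD90pos cells, and 6 differed in sign, beside 37.1% of all genes higher and 37.5% lower in both letters. In CD90neg cells 18 were higher and 10 lower in both letters, and 13 differed in sign, beside 29.9% of all genes higher and 33.8% lower.

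The interaction, the IFNg effect in CD90pos minus that in CD90neg cells, asked whether the populations respond differently. It was called for 0 of the 41 members and for 0% of all genes, by limma with and without the block. At an unadjusted p under 0.05, 826 genes with 2 members passed without the block and 2154 genes with 5 members passed with it. DESeq2 on the recovered reads called 171 genes, 1.32% of all, and 0 members, and edgeR called 0. Among the members at an unadjusted p under 0.05 with the block, Trim23 was at -0.94 (SE 0.25 with the block, adjusted p = 0.194), and Trim56 was at 0.60 (adjusted p = 0.253) and Trim8 at 0.47 (adjusted p = 0.238). That Trim14, Trim47, Trim23 and Trim59 were called in CD90pos cells alone therefore does not show a difference between the populations.

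Before IFNg, CD90pos cells differed from CD90neg cells in 0 members and 0% of all genes without the block, with 1898 genes and 4 members at an unadjusted p under 0.05. With the block 4 members were called, 9.76% of the members, beside 11.2% of all genes, 6.80% higher in CD90pos cells and 4.40% lower. The share of members called was thus not above that of all genes. edgeR with the block called 3, beside 10.6% of all genes, and DESeq2 called 4, beside 7.61%. Trim23 was higher in CD90pos control cells by 1.08 on the log2 scale (SE 0.18, adjusted p = 0.0288) and Trim59 by 0.64 (SE 0.13, adjusted p = 0.0362). Trim8 was lower, at -0.53 (SE 0.11, adjusted p = 0.0369), as was Trim65, at -0.80 (SE 0.20, adjusted p = 0.0472). Trim65 stood at 175 and 154 normalized reads in CD90pos control libraries A and B, against 294 and 279 in CD90neg control libraries, and Trim8 at 2057 and 1891, against 2903 and 2789. In all, groups did not overlap for 5 members higher in CD90pos control cells, beside 19.8% of all genes, and for 11 lower, beside 17.6%. Trim65 and Trim8 are among the lower ones, but with trends on exon length and GC content removed 0 of the 4 were called. The count with the block was also 0 without either CD90pos IFNg library, either CD90neg IFNg library or either CD90neg control library, where at most 0.0386% of all genes were called. The control libraries of CD90pos cells enter both this comparison and the IFNg effect, so the values of Trim23 and Trim59 in both rest on the same libraries.

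With IFNg in both populations, CD90pos against CD90neg cells gave 0 members and 0% of all genes called by limma without and with the block, with 17 genes and 0 members at an unadjusted p under 0.05 without it. DESeq2 called 1 gene, 0.00771% of all, and 0 members. Groups did not overlap for 4 members higher in CD90pos cells, beside 7.03% of all genes, and for 1 lower, Trim65, beside 6.97%. Trim65 was at 217 and 221 in CD90pos IFNg libraries, against 249 and 285 in CD90neg IFNg libraries.

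Genes that work with TRIM proteins were counted from lists. Of 5 measured family members that bear other names, 1 was raised in CD90pos cells with the block, beside 14.0% of all genes. It was Pml, at 1.43 on the log2 scale (adjusted p = 0.0118 by limma with the block), and at 0.81 in CD90neg cells without a call. Of 15 E2 enzymes and cofactors, 1 fell without the block in CD90pos cells, Ube2e1 at -0.82 (adjusted p = 0.0476), and 5 fell with it, beside 2.11% and 13.6% of all genes, among them Ube2n at -0.66, the E2 that builds signalling chains, while 0 were called in CD90neg cells. The list's median was -0.32 in CD90pos and -0.12 in CD90neg cells. All 5 measured genes of the system of the ubiquitin-like protein Isg15 were raised with the block in CD90pos and 4 in CD90neg cells, beside 14.0% and 3.48% of all genes, and its E2, Ube2l6, was called without the block too, at 4.75 (adjusted p = 0.0160) in CD90pos and 4.98 (adjusted p = 0.0167) in CD90neg cells.

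Of 20 measured RNA and DNA sensors and adaptors, some of them known targets of TRIM ligases, Myd88 was raised in CD90pos cells without the block and 11 with it, beside 2.11% and 14.0% of all genes. In CD90neg cells 0 were called without the block and 5 were raised with it, beside 3.48% of all genes. Dhx58, a sensor relative of RIG-I, was at 2.95 in CD90pos and 2.96 in CD90neg cells on the log2 scale, and both were called with the block. Mavs, the adaptor that Trim14 binds, was at 0.61 in CD90pos cells (adjusted p = 0.0483 with the block). Of the 15 genes of the IFNg pathway 9 were raised without the block in CD90pos and 4 in CD90neg cells, beside 2.11% and 0.633% of all genes, among them Socs1 at 4.64 and 4.35. With the block 12 were raised and 2 lowered in CD90pos cells, beside 14.0% and 13.6% of all genes, and 10 were raised and 1 lowered in CD90neg cells, beside 3.48% and 0.663%. The lowered ones were the receptor genes Ifngr1 at -0.67 (adjusted p = 0.0154) and Ifngr2 at -0.86 (adjusted p = 0.00377) in CD90pos cells, and Ifngr2 at -0.65 (adjusted p = 0.0217) in CD90neg cells. As a second family of RING ligases, 65 Rnf genes gave 4 raised and 1 lowered without the block in CD90pos cells and 11 and 6 with it, with a median log2 fold change of 0.12. Without the block these counts stand beside 2.11% of all genes in each direction, and with the block beside 14.0% and 13.6%. In CD90neg cells 1 and 0 were called without the block, beside 0.633% and 0.00771% of all genes. With the block 5 and 0 were called, beside 3.48% and 0.663%, and the median was 0.02.

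Among the 8 members whose letters differed by a mean beyond 1, Trim29, Trim46, Trim35, Trim24 and Trim6 differed more by letter than with IFNg. Trim15 and Trim14 changed more with IFNg in both populations. Some members with smaller letter differences also differed more by letter. Trim7 was at -0.83 by letter, against -0.02 with IFNg in CD90pos and -0.26 in CD90neg cells. For 23 of the 41 members letter A minus letter B had the same sign in all 4 groups, which held for 55.0% of all genes. For 8 of these the mean difference was beyond 1 on the log2 scale, which held for 15.1% of all genes. Both counts are near the shares of all genes and show no trait particular to the family. Trim29, Trim30a, Trim14, Trim46 and Trim15 were lower in A, by means of -4.25, -2.92, -2.03, -1.93 and -1.72. Trim35, Trim6 and Trim24 were higher in A, at 1.42, 1.30 and 1.04.

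Trim29, a member without a RING that is found in stratified and basal epithelium, was at 1.97 and 145 normalized reads in CD90pos IFNg libraries A and B, against 7.66 and 125 in CD90pos control libraries. It was at 8.84 and 144 in CD90neg IFNg libraries, against 7.20 and 102 in CD90neg control libraries. The 1.97 is 2 reads. The sign of its IFNg effect in CD90pos cells differed between tools, at -0.66 by limma and 0.17 by edgeR. All 12 epithelial markers, basal and luminal keratins alike, were also lower in A in the 4 groups. Among them the basal keratin Krt5 was at 328 and 13452 in CD90pos IFNg libraries, against 393 and 13087 in CD90pos control libraries, and at 153 and 3170 in CD90neg IFNg libraries, against 94.7 and 1131 in CD90neg control libraries. Of 7 measured leukocyte markers, 5 were higher in A in the 4 groups (Laptm5, Lyz2, Cd68, Tyrobp and Cd14), while Csf1r and Coro1a were not. Tyrobp was at 56.3 and 3.06 in CD90pos IFNg libraries, against 69.0 and 2.24 in CD90pos control libraries, and at 61.0 and 2.55 in CD90neg IFNg libraries, against 39.1 and 1.04 in CD90neg control libraries. Their part in the levels of the members was not tested.

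**Figure D4:**
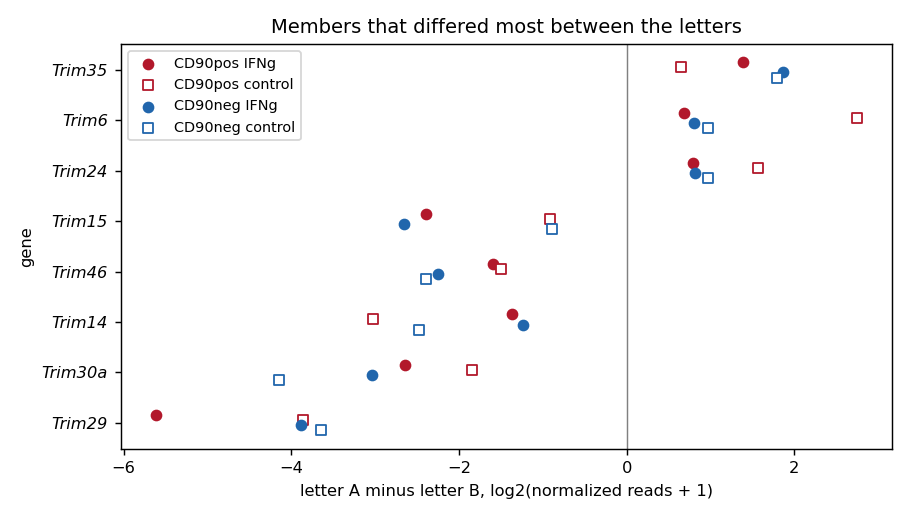
Letter A minus letter B, as log2(normalized reads + 1), in each of the 4 groups (filled circles for IFNg, open squares for control, red for CD90pos and blue for CD90neg) for the 8 members with the same sign throughout and a mean beyond 1. Trim29 lies between -5.62 and -3.65 in the 4 groups, and Trim35 between 0.65 and 1.86.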

How the data were processed

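Per the labels' protocols, the RNA of sorted PyMT cells came from a small-input kit and went into stranded poly(A)-selected libraries. The submitters' processing notes name the tools STAR and HTSeq and the genome builds mm10 and GRCm38, without versions of the tools. The authors deposited a table of normalized reads (signal) for each gene, and 100% of the values were whole multiples of 1 step per library within 0.001, so whole reads were recovered. The filter behind the table is not stated in the sources at hand, and the lowest maximum of any gene was 43.4 normalized reads. Identifiers were matched to GENCODE vM21, 12956 of 12964, with 11911 at identical coordinates.

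Genes reaching 10 normalized reads in 2 or more libraries, 12962 in all, entered the tests as log2(normalized reads + 1) with limma 3.58.1 (R 4.3.3), 1 mean per group, a variance trend, all 8 libraries, two-sided, with Benjamini-Hochberg adjustment. The pseudocount of 1 shrinks the fold changes of low genes. Their values still differed from those of edgeR in either direction. In CD90pos cells Trim14 was at 2.36 by limma and 1.88 by edgeR, and Trim15 at 4.25 and 4.79. A count test had been planned for raw counts, and since the file held normalized reads, edgeR 4.0.16 and DESeq2 1.42.0 on the recovered reads served as alternatives. Libraries of the same letter deviated together: differences between A and B correlated at 0.779 to 0.920 across genes over the 6 pairs of groups (0.768 to 0.946 across members). The letters were therefore taken to pair the libraries, and values from the fit with the letter as a replicate block stand beside results they change. Floors cover counting error only. Values were printed per library for members called in either IFNg comparison and for steady members whose blocked 95% interval lay within 0.5 of 0 in both populations. The members and lists were chosen with earlier results of these data known. Fits were tested on simulated data.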

Additional observations from a re-analysis of the deposited data

Results flagged for a closer look

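For 6 members without a call, both letters of CD90pos cells moved up with IFNg and both letters of CD90neg cells moved down. Of all genes, 37.1% were higher in both letters of CD90pos cells and 33.8% were lower in both letters of CD90neg cells. The share of all genes that met both was not counted, so the pattern is not shown to be particular to these members. The log2 fold changes in CD90pos and CD90neg cells were 0.25 and -0.0874 for Trim33, 0.25 and -0.0848 for Trim28, 0.24 and -0.0735 for Trim68, 0.21 and -0.26 for Trim8, 0.35 and -0.0330 for Trim37, and 0.10 and -0.14 for Trim16. These signs held under quantile normalization, median centring, edgeR and DESeq2. With the block and trends on exon length and GC content removed, the CD90pos value was -0.09 for Trim28 and -0.11 for Trim8, and the other signs held. The difference itself was tested as the interaction and passed the threshold for none of the 6, with adjusted p-values with the replicate block from 0.238 (Trim8) to 0.612 (Trim68).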

How the results depend on the processing

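Of 676 values of the 18 members printed per library under other settings, 518 kept their direction and their side of the threshold, 79 passed it newly, 62 no longer passed it, 17 values without a call (of Trim44, Trim16, Trim23 and Trim47) changed sign, and 0 called values reversed. In CD90pos cells 7 members were called in the main fit, beside 4.21% of all genes, and 16 with the replicate block, beside 27.6%. With the block and trends on length and GC content removed 14 were called, beside 16.8%. By edgeR with the block 17 were called, beside 27.7%, and by DESeq2 13, beside 15.8%. In CD90neg cells 1 was called in the main fit, beside 0.640% of all genes, and 12 with the block, beside 4.14%. The block with that correction gave 12, beside 4.29%, and edgeR with the block 12, beside 4.25%. DESeq2 gave 10, beside 2.83%, and edgeR without the block 0, beside 0.478%. A pseudocount of 5 gave 2, beside 102 of 12962 genes. For CD90pos against CD90neg control cells, 0 were called in the main fit, beside 0% of all genes, and 4 with the block, beside 11.2%. For these cells edgeR with the block called 3, beside 10.6%, and DESeq2 called 4, beside 7.61%. Leaving out 1 library without the block gave 0 to 3 members in CD90pos and 0 to 1 in CD90neg cells. At most 0.879% and 0.617% of all genes were called in these fits. With the block the counts were 9 to 22 in CD90pos cells, 4 to 12 in CD90neg cells and 0 to 6 for the control comparison. In CD90pos cells the 9 stood beside 3.55% of all genes and the 22 beside 27.1%. In CD90neg cells the 4 stood beside 1.94%, and the fits with 12 beside 5.23% and 5.38%. For the control comparison the 6 of 41 members stood beside 19.0%, so their share was not above that of all genes. Fits without a library rest on fewer residual degrees of freedom, and the remaining library of that group is assumed to vary like the others; the cause of the other differences was not tested. The residual degrees of freedom were 4 without and 3 with the block. With 2 libraries per group and control values of 3 to 25 reads, the size of the change of Trim30d and Trim15 is poorly fixed.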
